A study of Mus musculus with 3 samples.

Results

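The genes of cyclic nucleotide signalling were followed in RNA that was pulled down with tagged ribosomes from the deep cerebellar nuclei, through which the cerebellum sends its output. Members were chosen by symbol: the adenylyl cyclases (Adcy and a number), the phosphodiesterases (Pde, a number and a letter from a to d), the subunits of protein kinase A (PKA; Prkaca, Prkacb, Prkar1a, Prkar1b, Prkar2a and Prkar2b) and the A kinase anchoring proteins (AKAPs; Akap and a number). The rule found 54 of 32531 gene rows, namely 10 adenylyl cyclases, 22 phosphodiesterases, 6 PKA subunits and 16 AKAPs. It leaves out genes whose symbols end otherwise, and it takes in Pde6d, a prenyl-binding partner of photoreceptor phosphodiesterase with no catalytic activity of its own.

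The samples were 3 immunopurified libraries of 1 group, replicates 1 to 3, from adult mice of the Htr6-TRAP NIDA113 line on the C57BL/6J strain, with no treatment named. All of them carry a transgene that fuses EGFP to the ribosomal protein Rpl10a and is named for Htr6, the gene of a Gs-coupled serotonin receptor, so tagged ribosomes come from whichever cells use that transgene. Unpurified RNA was not analysed here, so a value says how abundant an RNA was after purification, not how far it was enriched from tissue. The labels do not say whether libraries came from separate animals, so the spread between them may be partly technical, and in such bulk RNA fewer cells of a type and less RNA per cell cannot be told apart.

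In this pathway a receptor activates the G protein alpha subunit Gs, which stimulates adenylyl cyclases to make cyclic AMP (cAMP). The second messenger releases the catalytic subunits of PKA from their regulatory subunits, opens or shifts cyclic nucleotide-gated channels and activates Epac exchange factors. Phosphodiesterases break cAMP and cyclic GMP (cGMP) down, and AKAPs hold PKA beside its targets. In the cerebellum cAMP and cGMP are known for their roles in synaptic plasticity at the synapses of granule cells and Purkinje cells.

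The regulatory subunits of PKA differ at the short site that sits in the active centre of the catalytic subunit, and these sequences are shown because the libraries differed little in the balance of the type I and type II subunits described below. In type II subunits the residue there is a serine that the kinase can phosphorylate, while type I subunits have another residue and act as pseudosubstrates. The coding sequence around the site, from the GENCODE M21 transcripts on mm10, reads 5′ to 3′ as follows, with the codon of that residue in capitals.
Prkar1a: cgacggcgccgaggtGCTatcagtgctgaa
Prkar1b: cgtcgccggcggggcGGTgtgagtgctgaa
Prkar2a: tttactagacgagtaTCAgtctgtgcagaa
Prkar2b: ttcacaaggcgtgccTCGgtctgtgcagaa
The capital codon encodes alanine in Prkar1a (codon 99 of 381, counted from the start codon), glycine in Prkar1b (codon 99 of 381), and serine in Prkar2a (codon 97 of 402) and Prkar2b (codon 112 of 416). The Prkar1a stretch lies in exon 4 on the plus strand, at chr11:109660101-109660130, and that of Prkar1b in exon 3 on the minus strand, at chr5:139108523-139108552. In Prkar2a (plus strand, chr9:108714290-108716873) and Prkar2b (minus strand, chr12:31993773-32038640) the stretch crosses the junction of exons 2 and 3, so these coordinates include the intron.

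The libraries held 7622010 to 8842058 counts assigned to genes. Of the reads that HTSeq placed in a gene, called ambiguous or left outside genes, 44.1% to 50.2% lay outside any annotated feature. A count of 0 in a library allows up to 0.340 to 0.397 CPM (counts scaled to a common library size, with sizes adjusted by TMM), taking 3 counts as the limit and counting error only. Markers of several cell types were present. The 7 markers of glutamatergic neurons of the deep nuclei summed to 479 to 738 CPM per library and the 6 inhibitory ones to 406 to 945 CPM, of which Sox14 had no count. The 8 granule cell markers summed to 3192 to 3848 CPM and the 9 Purkinje cell markers to 6077 to 8008 CPM. The 8 oligodendrocyte markers summed to 3158 to 4049 CPM and the 8 astrocyte markers to 2594 to 2940 CPM. Of the Purkinje cell markers, Itpr1, Rgs8 and Car8 had means of 3669, 1733 and 1154 CPM. Pcp2, Skor2 and Pcp4 had only 27.6, 7.35 and 0.34 CPM. Slc1a2 and Aldoc led the astrocyte list, at 1342 and 697 CPM, but Aldoc is not particular to astrocytes, since Purkinje cells use it too. Gfap, Gja1 and Aldh1l1 had only 31.0, 14.7 and 5.20 CPM. The 9 microglial markers summed to 26.6 to 37.0 CPM, with C1qa, Aif1 and Trem2 at 0. The 8 markers of striatal medium spiny neurons, which use several members strongly, summed to 60.6 to 171 CPM, with Adora2a at 0. Among the deep nuclei markers, Slc17a6, Gad1 and Gad2 had means of 302, 203 and 414 CPM. Gad1 and Gad2 are general markers of inhibitory neurons and are not particular to the deep nuclei. The inhibitory markers Slc32a1, Slc6a5 and Pax2 had 23.7, 23.8 and 27.7 CPM. Tbr1, Lhx9 and Lhx2 had only 10.4, 6.21 and 1.57 CPM. Lists for the deep nuclei, the cerebellar cortex and glia thus all had counts, but the sums do not tell which cells gave the RNA.

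Most members were measurable. Of the 54, 37 had a mean of at least 10 CPM, against 25.1% of all gene rows, and 42 had at least 3 counts in every library, against 31.5%. Adcy, Pde, PKA and AKAP genes contributed 6, 14, 6 and 11 of the 37. No count fell on 8 members, against 50.6% of all gene rows. These were Pde4c, Pde6a, Pde6b, Pde6c, Pde11a, Akap2, Akap4 and Akap14. The products of Pde6a, Pde6b and Pde6c are known from photoreceptors and that of Akap4 from sperm. Akap2 cannot be read from these files, because 84.4% of its exon bases also belong to Pakap in GENCODE M21. Pakap was at 0 counts too, whereas the neighbouring row Palm2 held 1042, 591 and 951 counts. Among the 44 members that reached 10 counts in 2 or more libraries, the median level per exon length was 2.58 ± 0.59 (SD, n = 3) on the log2(RPKM + 0.1) scale, where RPKM is CPM per kilobase of annotated exons. The 10337 genes of the files that passed the same minimum and have a length had a median of 2.36 ± 0.02.

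**Figure D1:**
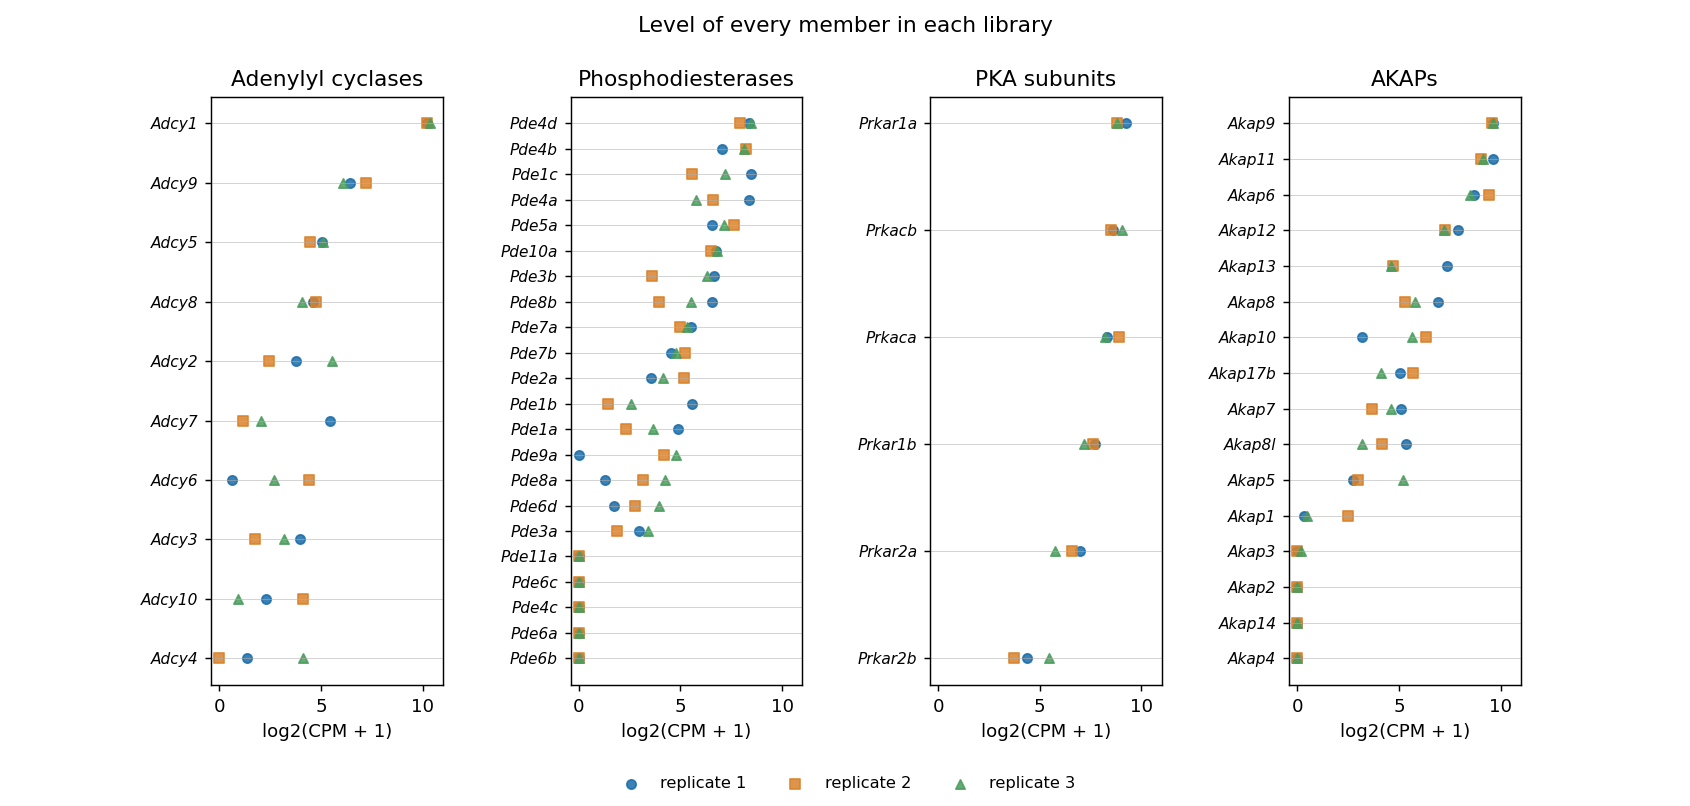
Level of each member as log2(CPM + 1) in the 3 libraries, by class; each point is 1 library and genes are ordered by mean CPM. Points of Adcy1, Akap9 and Pde10a lie close together, while those of Adcy7, Pde1b and Pde9a lie far apart, and members without a count sit at 0. CPM is not scaled by length, so it does not rank genes against each other.

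Adcy1 made up most of the adenylyl cyclase RNA, and it was among the most even members. It encodes a cyclase stimulated by calcium and calmodulin and is known to be strongly used in the cerebellum, by granule cells among others (ENSMUSG00000020431.5, plus strand, chr11:7063489-7178506 in mm10). Adcy1 had 9059, 10290 and 10194 counts in replicates 1, 2 and 3, or 95.8, 93.3 and 104 RPKM. The libraries differed by 1.12 times at most, and the coefficient of variation of its CPM was 6.01%. Its share of the summed RPKM of the 10 cyclases was 72.6%, 69.7% and 74.2% (72.2% ± 2.3, SD, n = 3). Adcy9, a widely used cyclase with little sensitivity to forskolin, came next at 14.1% ± 6.1, with 638, 1278 and 523 counts and its highest level in replicate 2. The granule cell markers, all 8 of which had at least 10 CPM, had their lowest sum in replicate 1, where 6 of the 8 were lowest. Zic1 was lowest in replicate 2 and Fat2 in replicate 3. Replicate 1 was also lowest for 4043 of the 11168 genes that reached 10 counts in 2 or more libraries. Adcy1 itself was lowest in replicate 2. The part of granule cells in the Adcy1 level was not tested.

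The other cyclases were far lower. Adcy5, the calcium-inhibited cyclase that dominates in the striatum, had 244, 182 and 261 counts (4.01 ± 0.99 RPKM, SD, n = 3). Adcy1 exceeded it by 4.38, 4.97 and 4.46 on the log2(RPKM + 0.1) scale, a difference of 4.60 ± 0.32 or 24.3-fold. Adcy8, which calcium also stimulates, had 179, 227 and 122 counts (2.66 ± 0.66 RPKM). Adcy5 and Adcy8 were steady at these levels, with coefficients of variation of 24.6% each. The gap between Adcy1 and either of them was many times its spread between libraries.

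Members that G protein beta-gamma subunits stimulate varied much more. Adcy2 had 95, 39 and 350 counts and was highest in replicate 3. Adcy1 exceeded Adcy2 by 4.86 ± 1.53 log2 units (SD, n = 3), from 3.28 in replicate 3 to 6.34 in replicate 2. Adcy7, known from immune cells besides neurons, had 319, 11 and 24 counts, so replicate 1 was 33.8 times as high as replicate 2. The microglial markers summed to 36.0, 37.0 and 26.6 CPM in replicates 1, 2 and 3, but they did not move together. Csf1r was highest in replicate 2 (113, 272 and 102 counts), while Cx3cr1 (107, 6 and 17 counts) and Tmem119 (20, 0 and 0 counts) were highest in replicate 1, as Adcy7 was. P2ry12 (2.65, 4.31 and 4.49 CPM) and C1qc (1, 0 and 53 counts) were highest in replicate 3. Of the 6 microglial markers with a count, 3 were highest in replicate 1. The part of microglia in the Adcy7 values was not tested. Adcy4 had 12, 0 and 128 counts, at least 48.2-fold higher in replicate 3 than in replicate 2 with the 3-count limit of replicate 2. The calcium-inhibited Adcy6 (4, 181 and 43 counts) and the soluble, bicarbonate-sensitive Adcy10 (29, 143 and 7 counts) were both highest in replicate 2. Adcy3, the olfactory and ciliary cyclase, named after its values were seen, completed the class with 110, 21 and 63 counts. In GENCODE M21, 22.1% of the Adcy3 exon bases overlap Cenpo on the opposite strand, whose row held 4, 21 and 1 counts. Thus 5 of the 10 cyclases (Adcy2, Adcy4, Adcy6, Adcy7 and Adcy10) differed at least 10 times between libraries or had a library at 0, as did 26.8% of all genes with at least 50 counts in a library, and they were not high in the same one.

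Among phosphodiesterases the cAMP-specific Pde4 family took the largest share. These enzymes are the targets of rolipram and are widely used in neurons. The Pde4 genes held 49.6% ± 3.2 (SD, n = 3) of the summed RPKM of the 21 enzyme genes, and all cAMP-specific genes (Pde4, Pde7 and Pde8) held 62.4% ± 1.1. Pde4d (ENSMUSG00000021699.17, plus strand, chr13:108449948-109953461) had 2477, 2147 and 2748 counts, or 27.3, 20.3 and 29.4 RPKM. Pde4b had 999, 2590 and 2148 counts, or 12.5, 27.8 and 26.1 RPKM, and was lowest in replicate 1. Pde4d minus Pde4b was 1.12, -0.45 and 0.17 log2 units in replicates 1, 2 and 3, so their difference (0.28 ± 0.79) was smaller than its SD and changed sign. Pde4a had 2476, 862 and 423 counts, or 42.8, 12.8 and 7.09 RPKM, so replicate 1 stood above the other two. Pde4c had no count in any library.

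The summed RPKM of the Pde4 family was 82.7, 60.9 and 62.6 in replicates 1, 2 and 3, and the library with most Pde4a had least Pde4b. Pde7a was the steadiest of the other cAMP-specific genes (339, 267 and 309 counts; 4.94 ± 0.95 RPKM, SD, n = 3), and Pde7b lay at 2.29 ± 0.60 RPKM. Pde8a, a high-affinity cAMP phosphodiesterase, had 11, 70 and 139 counts and was 12.2 times as high in replicate 3 as in replicate 1. Pde8b went the other way, with 705, 129 and 347 counts and its highest value in replicate 1. Pde7a, Pde7b and Pde8b are named after their values were seen.

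**Figure D2:**
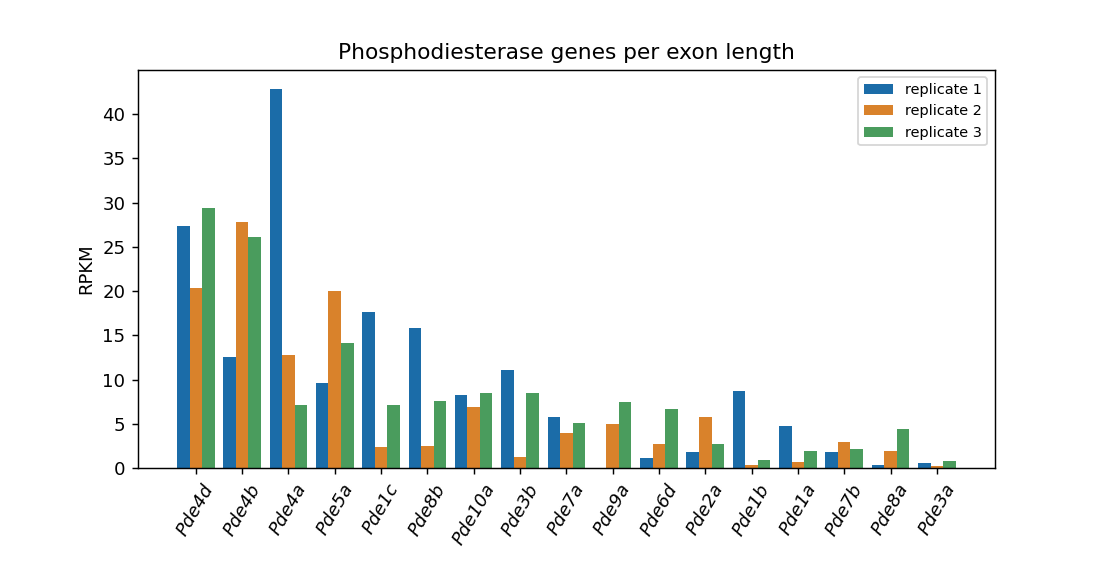
RPKM (CPM per kilobase of annotated exons) of the 17 phosphodiesterase genes that reached 10 counts in 2 or more libraries; each bar is 1 library, and genes are ordered by mean RPKM. Pde4a, Pde1c, Pde8b, Pde1b and Pde1a are highest in replicate 1, Pde4b and Pde5a are lowest there, and Pde10a is about level.

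The calcium- and calmodulin-activated Pde1 genes, whose products break down both cyclic nucleotides, were all highest in replicate 1 and lowest in replicate 2. Pde1c had 2665, 413 and 1121 counts, a 7.53-fold range. Pde1b had 354, 15 and 38 counts, a 27.5-fold range, and Pde1a had 217, 36 and 91 counts, a 7.03-fold range. The Pde1 share of phosphodiesterase RPKM was accordingly 18.4%, 2.90% and 7.48%. The order of replicate 1 above 3 above 2 was also found in Pde3b, Pde7a and Pde8b, so in 6 of the 17 tested phosphodiesterases, in 11 of the 44 tested members and in 17.9% of all tested genes. Pde1a, like the genes named here for their order, is named after its values were seen. In replicates 1, 2 and 3 the glutamatergic deep nuclei markers summed to 738, 522 and 479 CPM, the inhibitory ones to 725, 406 and 945 CPM, the Purkinje cell markers to 6077, 8008 and 7673 CPM and the striatal markers to 82.6, 171 and 60.6 CPM. The 9 pan-neuronal markers summed to 25530, 23406 and 17472 CPM, so they were highest in replicate 1 but lowest in replicate 3. The part of these cells in the Pde1 values was not tested.

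Of the other enzymes that accept both nucleotides, Pde10a was the most even. Pde10a, known from striatal medium spiny neurons, had 799, 786 and 852 counts (7.89 ± 0.84 RPKM, SD, n = 3) and a coefficient of variation of 10.6%. In contrast, Pde3b, which cGMP inhibits, had 763, 99 and 602 counts, and Pde2a, which cGMP stimulates, had 82, 313 and 132. Pde3a was at 0.50 ± 0.27 RPKM and Pde11a had no count. In GENCODE M21, 64.3% of the exon bases of Pde2a also belong to the predicted gene Gm45837 on the same strand, so its counts depend on which gene models were used for counting. The 4 genes with counts here were named after their values were seen.

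cGMP-specific phosphodiesterases were represented by Pde5a and Pde9a. Pde5a, the target of sildenafil and known from Purkinje cells, had 714, 1734 and 1086 counts, or 9.62, 20.0 and 14.2 RPKM. Pde9a, an enzyme of high affinity for cGMP, had 0, 154 and 205 counts, or 0, 4.94 and 7.44 RPKM. It was below Pde5a in 3 of 3 libraries. In replicate 1 Pde9a was at least 85.7-fold lower than Pde5a per exon length, taking 3 counts as the limit. In replicates 2 and 3 the log2 differences were -2.00 and -0.92, and their mean without replicate 1 was -1.46. The mean over all libraries, -3.17 ± 3.02 (SD, n = 3), is set by the library at 0. The photoreceptor genes Pde6a, Pde6b and Pde6c had no count, so the median of the 5 cGMP-specific genes lay at 0 RPKM in every library. Pde6d, with 18, 52 and 114 counts, is no enzyme, was left out of these shares and is named after its values were seen.

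**Figure D3:**
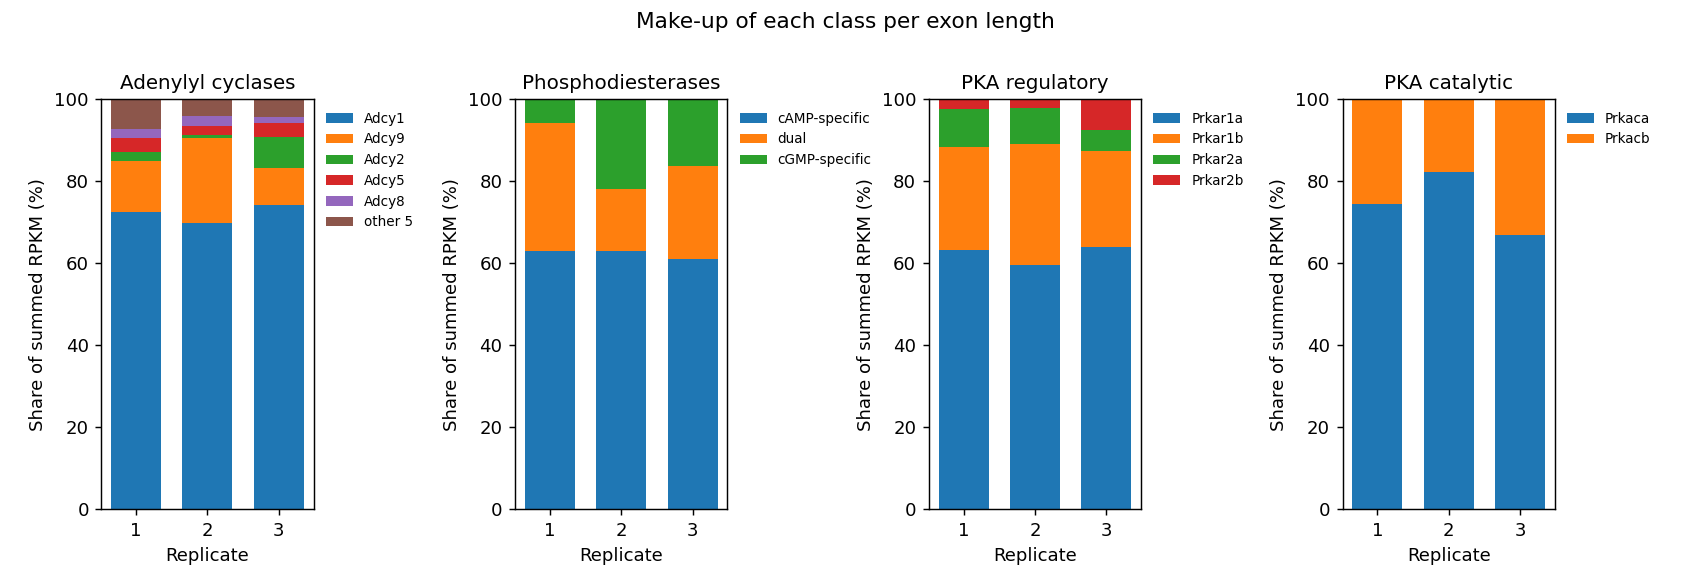
Share of the summed RPKM in percent taken by the genes of the adenylyl cyclases (the 5 lowest together), PKA regulatory and PKA catalytic subunits, and by each substrate group of the phosphodiesterases (without Pde6d), 1 stacked bar per library. Adcy1 holds 69.7% to 74.2% of its class and Prkar1a 59.6% to 63.9% of the regulatory subunits, while the share of cGMP-specific phosphodiesterases runs from 5.70% to 21.8%.

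All 6 PKA subunit genes had a mean above 10 CPM, and the share of type I among regulatory subunits was similar in the 3 libraries. Type I regulatory subunits, the pseudosubstrate forms whose site was shown above, held 88.5%, 89.2% and 87.4% of the regulatory RPKM. Prkar1a, the broadly used type I subunit (ENSMUSG00000020612.16, plus strand, chr11:109649405-109669656), had 4532, 3903 and 3435 counts, or 139, 103 and 102 RPKM. Prkar1b, the type I subunit known mainly from neurons, had 1590, 1708 and 1115 counts, or 55.2, 50.9 and 37.6 RPKM. Prkar1a was higher than Prkar1b in 3 of 3 libraries, by 1.26 ± 0.22 log2 units (2.39-fold; SD, n = 3). In GENCODE M21, 8.95% of the Prkar1b exon bases are shared with Gm15672 on the same strand.

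Type II subunits, which carry the serine, were lower. Prkar2a had 961, 854 and 416 counts, or 19.9, 15.2 and 8.37 RPKM. Prkar2b, the type II subunit enriched in forebrain neurons and fat, had 148, 109 and 336 counts, or 5.37, 3.39 and 11.8 RPKM. Prkar2a was the higher of the pair in replicates 1 and 2 and Prkar2b in replicate 3. Their difference, Prkar2b minus Prkar2a, was -1.17 ± 1.45 log2 units, within its SD, and -2.00 without replicate 3. Prkar1b exceeded Prkar2b by 3.34, 3.87 and 1.66 log2 units (2.96 ± 1.15; SD, n = 3), with the smallest gap in replicate 3.

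The catalytic subunits were Prkaca (ENSMUSG00000005469.10, plus strand, chr8:83972993-83996443) and Prkacb. Prkaca had 2377, 4178 and 2330 counts, or 126, 191 and 120 RPKM, and was highest in replicate 2. Prkacb had 2886, 3178 and 4085 counts, or 43.6, 41.1 and 59.8 RPKM, and was highest in replicate 3. Prkacb minus Prkaca was -1.54, -2.21 and -1.01 log2 units (-1.58 ± 0.60; SD, n = 3). This gap depends on the exon length assigned to each gene, 2488 bases for Prkaca and 8772 for Prkacb. With the longest coding transcripts (2276 and 4347 bases) the difference was -0.70, and without length scaling, on the log2(CPM + 1) scale, it was 0.23. Summed over both catalytic genes, RPKM was 0.77, 1.35 and 1.13 times that of the 4 regulatory genes.

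**Figure D4:**
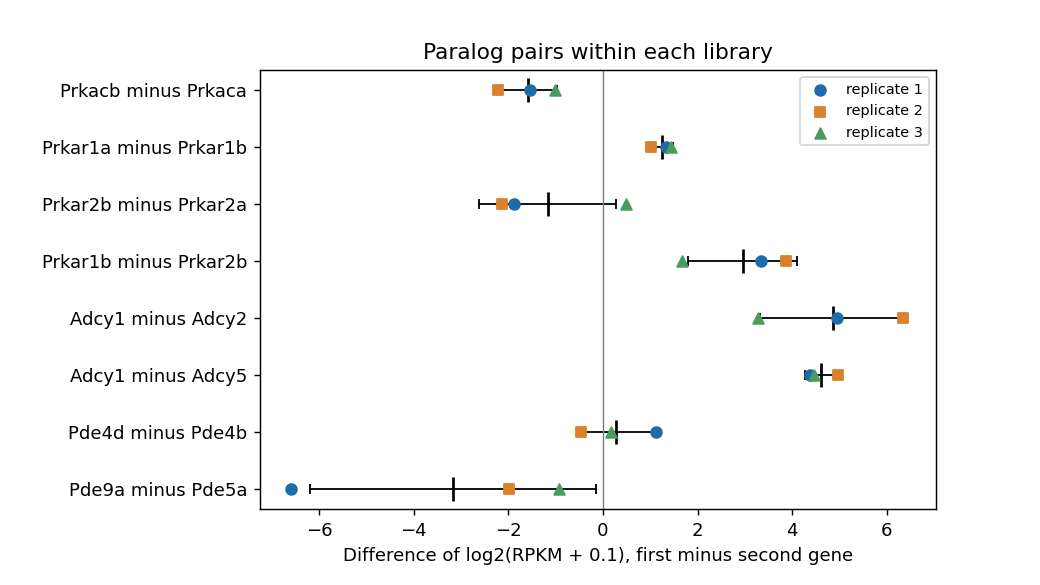
Difference between the genes of 8 pairs on the log2(RPKM + 0.1) scale in each library (points), with the mean (vertical mark) and SD (bar) over 3 libraries. Adcy1 lies 3.28 to 6.34 above Adcy2 and Adcy5, Prkar1a lies above Prkar1b in each library, and Prkar2b against Prkar2a and Pde4d against Pde4b cross 0.

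With 3 libraries, the smallest p that an exact two-sided permutation of signs allows for these 8 pairs is 0.25. The 6 pairs with 1 sign in all libraries had that p (Benjamini-Hochberg adjusted exact p = 0.33), while Prkar2b against Prkar2a gave an exact p = 0.50 and Pde4d against Pde4b an exact p = 0.75. Sizes are therefore judged against the SD.

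The AKAPs were led by large scaffolds. Akap11 (ENSMUSG00000022016.16, minus strand, chr14:78492246-78536808), a scaffold that also binds the kinase GSK3, had 5894, 4648 and 4353 counts, or 70.8, 47.9 and 50.7 RPKM. Akap9 (ENSMUSG00000040407.17, plus strand, chr5:3928054-4081310), a centrosome and Golgi scaffold that also binds ion channels, had 5854, 6655 and 6110 counts, or 36.3, 35.4 and 36.7 RPKM. Akap9 was the most even member, with a coefficient of variation of 1.91%. Akap6, a scaffold of the nuclear envelope, had 3130, 6141 and 2794 counts and was highest in replicate 2. Akap12, also called gravin, had 1791, 1323 and 1148 counts. These 4 genes held 81.0% ± 1.4 (SD, n = 3) of the summed RPKM of the 16 AKAP genes.

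The remaining AKAPs were lower and less even. Akap10, which binds both types of regulatory subunit, had 60, 707 and 375 counts, a 10.1-fold range with replicate 1 lowest. Akap13 had 1239, 224 and 183 counts and was highest in replicate 1. Akap5, the postsynaptic scaffold that brings PKA to glutamate receptors, had 42, 60 and 275 counts and was highest in replicate 3. Akap8, Akap8l, Akap7 and Akap17b had means of 21.7 to 70.6 CPM. Akap1, the anchor of the mitochondrial outer membrane, had 2, 41 and 3 counts, and Akap3 had 1 count in all. The AKAPs named in this paragraph other than Akap10 are named after their values were seen.

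Compared as classes within a library, PKA subunits stood highest. Their median was 5.57 on the log2(RPKM + 0.1) scale, against 1.44 for adenylyl cyclases, 1.73 for phosphodiesterases and 2.09 for AKAPs. The PKA median exceeded that of the cyclases by 4.01, 4.25 and 4.13 (4.13 ± 0.12; SD, n = 3), and the AKAP minus PKA median was -2.92, -3.88 and -3.63 (-3.48 ± 0.49). The phosphodiesterase and cyclase medians differed by 0.30 ± 0.47, within the SD and with no common sign. The direction turned with the summary, at -0.52 ± 0.09 as a mean over members and 1.07 ± 0.63 among members that reached 10 counts in 2 libraries. The cAMP-specific minus cGMP-specific median, 5.83 ± 0.66, rests on the pseudocount, since the second median is at 0. Among the 7 and 2 of these genes with at least 10 counts in 2 libraries, it was 0.61 ± 2.69. The classes hold different numbers of genes without counts, and no p is given for such medians.

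Spread between libraries was beyond counting error for nearly all members, as for nearly all genes. By a Poisson chi-square test of the counts with Benjamini-Hochberg adjustment over all tested genes, 43 of 44 tested members varied beyond counting error at 0.05, against 96.5% of the 11168 genes. Akap9 was the member that did not pass. By edgeR's quasi-likelihood dispersion, which compares a gene with others of its level, 0 of 44 members passed at an adjusted 0.05, against 0.0% of genes. The power of this test with 3 libraries was not shown. At an unadjusted 0.05, 4 members passed (Pde1c, Pde4a, Pde9a and Akap13), against 4.27% of genes. Of the 44 members with at least 50 counts in a library, 9 had a highest library at least 10 times the lowest or a lowest at 0, against 26.8% of the genes with that count. These were the 5 cyclases above, Pde1b, Pde8a, Pde9a and Akap10.

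Members of higher level were more even. The 15 members of at least 100 CPM had a median coefficient of variation of 22.2%, beside 25.4% for the 2067 tested genes of that level. The 29 tested members of lower level had a median of 76.0%, beside 66.0% for the 9101 genes. In the higher group the exceptions were Pde4a (91.9%) and Pde1c (86.3%), and in the lower group Pde7a (19.3%), Adcy8, Adcy5 and Pde7b lay under 30%. Replicates 1, 2 and 3 held the highest value of 18, 12 and 14 tested members. Over all tested genes these shares were 35.2%, 32.6% and 32.2%.

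**Figure D5:**
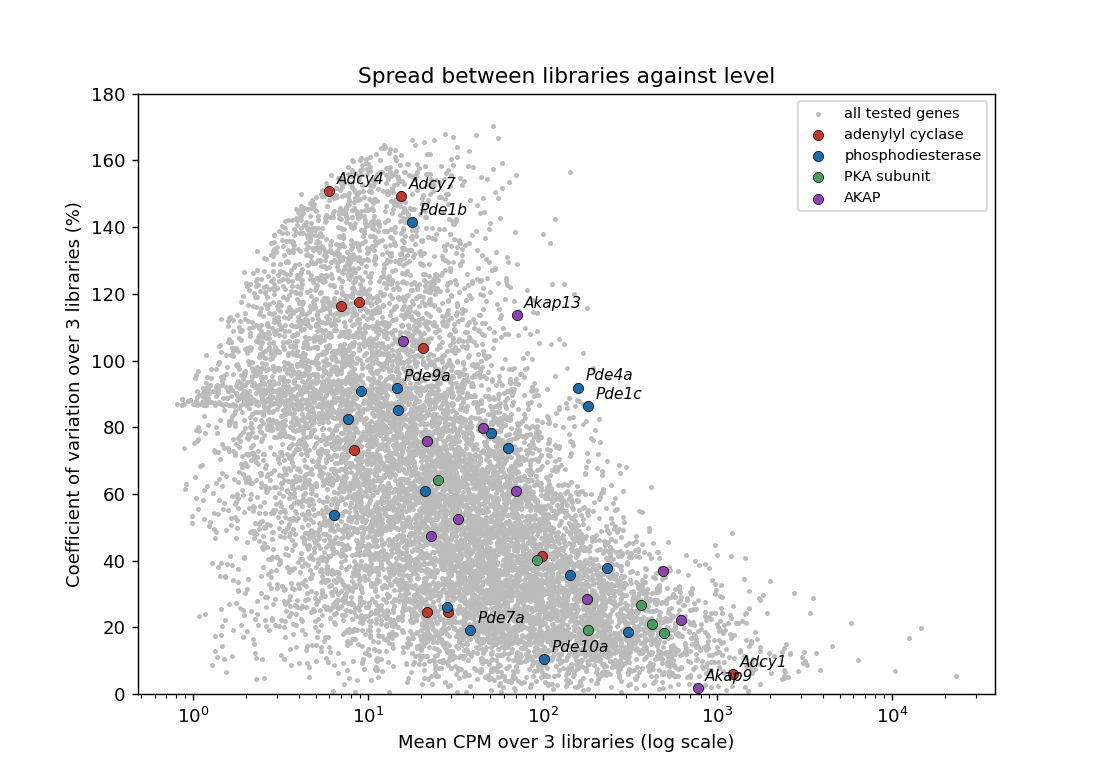
Coefficient of variation of CPM over the 3 libraries in percent against mean CPM on a log scale, for all 11168 tested genes (grey) and the 44 tested members by class. Adcy1 (6.01%) and Akap9 (1.91%) lie at the bottom right, and Pde4a, Pde1c and Akap13 lie high for their level.

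The genes around these members were counted from 10 pathway lists with 82 genes in the files, of which 42 had at least 10 CPM, against 25.1% of all gene rows. Of the 48 tested, 47 varied beyond counting error, near the 96.5% of all tested genes. Upstream, both stimulatory alpha subunits were high. Gnas (13847, 18965 and 17964 counts; 187 ± 21.5 RPKM, SD, n = 3) encodes Gs, and Gnal (6042, 6644 and 4631 counts; 64.1 ± 9.7 RPKM) its olfactory and striatal relative. Of 23 Gs-coupled receptor genes, 4 had at least 10 CPM and 5 had no count. The highest were Vipr2, a receptor for VIP and PACAP (597, 1910 and 535 counts), and the PACAP receptor gene Adcyap1r1 (733, 529 and 1486 counts). Htr6 had 0, 7 and 0 counts.

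Downstream of cAMP, the channel gene Hcn2 had 33, 264 and 88 counts and was highest in replicate 2, and 5 of the 6 Cng channel genes had none. The Epac gene Rapgef4 had 1571, 1736 and 1103 counts and Rapgef3 had 7, 199 and 24. Of the PKA inhibitor genes and the related kinase, Pkia led with 1404, 941 and 1168 counts, followed by Prkx with 131, 92 and 284. The coactivators Ep300 (55.9 ± 7.4 RPKM) and Crebbp (37.8 ± 7.5 RPKM) led the list of 8 CREB family genes and coactivators, 7 of which had at least 10 CPM. The phosphatase regulator genes Arpp19 and Arpp21 had means of 153 and 85.4 CPM. Of proteins outside the rule that bind PKA, Map2 (724 ± 54.7 CPM) and Sphkap (575 ± 31.0 CPM) had the highest CPM. Per exon length Sphkap (59.8 RPKM) lay above Map2 (44.0 RPKM). All 11 with a gene row had at least 10 CPM.

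On the cGMP side, the soluble guanylyl cyclase subunits Gucy1a2 (2246, 1911 and 2341 counts) and Gucy1a3 (893, 1990 and 1207 counts) had the highest mean CPM in a list of 14 genes. Of these 14 genes, 5 had at least 10 CPM and 6 had no count. The kinase gene Prkg1, known from Purkinje cells, had 566, 1630 and 1174 counts, and Prkg2 had 1, 5 and 4. Prkg1 and Pde5a, 2 genes of cGMP handling, both had their lowest value in replicate 1 and their highest in replicate 2. Gucy1a3 had that order too, whereas Gucy1a2 was lowest in replicate 2 and Pde9a was highest in replicate 3. Among the other members, Pde4b, Pde7b, Pde2a, Adcy6, Akap10 and Akap1 also had the order of Prkg1 and Pde5a. Of the pathway genes, Hcn2 and Rapgef3 were among those that had it. The order was therefore not particular to genes of cGMP handling, and the share of all genes with it was not counted. The 9 Purkinje cell markers summed to 6077, 8008 and 7673 CPM, but only 2 of them, Calb1 and Itpr1, were lowest in replicate 1 and highest in replicate 2. Itpr1 alone gave 3148, 3934 and 3923 CPM of these sums. The granule cell, astrocyte, oligodendrocyte, pan-neuronal and striatal lists each had 2 markers with that order as well. The microglial and inhibitory deep nuclei lists had 0 such markers and the glutamatergic list had 1. The part of Purkinje cells in the values of Prkg1 and Pde5a was not tested.

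The binding element of CREB, the transcription factor that PKA phosphorylates, was searched for in the members' own promoters as a shared sequence feature. The palindrome TGACGTCA, which reads the same on both strands, was looked for in RefSeq promoter windows of 300 bases (GRCm38.p6), which 44 of the 54 members matched by symbol. It was present in 1 member, Prkar1a, in 2 overlapping windows of 86, beside 1.79% of all 32851 windows. The window of Prkar1a is shown because it was the member promoter that held the element, which is in capitals, at chr11:109650699-109650998 on the plus strand.
Prkar1a: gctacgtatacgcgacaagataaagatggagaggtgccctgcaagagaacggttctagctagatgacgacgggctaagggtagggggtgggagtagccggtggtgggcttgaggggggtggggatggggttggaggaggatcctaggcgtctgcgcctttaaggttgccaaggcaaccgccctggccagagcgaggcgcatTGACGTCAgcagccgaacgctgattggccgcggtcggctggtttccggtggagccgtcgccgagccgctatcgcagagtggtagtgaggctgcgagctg
In the window shown, the element begins at position -49 relative to the annotated start of that window. In the other window it begins at position 38, downstream of the start. No match in the others says only that these letters are not in the windows.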

How the data were processed

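The deposited tables hold raw counts of reads per gene symbol, 1 table for each of 3 immunopurified libraries. HTSeq, STAR 2.0.0e and mm10 are the tools and build listed, without roles, in the submitters' processing notes. Gene models and strand setting were not given in the sources used here; overlapping and antisense genes cannot be told apart. The 5 summary rows that HTSeq writes and a row named unknown were left out. CPM used TMM library sizes (edgeR 4.0.16, R 4.3.3). RPKM divided CPM by the union of GENCODE M21 exons (54 of 54 members matched by symbol), and logs used a pseudocount of 0.1.

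Members and lists were chosen with earlier results of these data known. Values in every library are given for the 4 members of highest mean CPM in each class and the genes of 8 pairs. They are also given for the members that ranged at least 10 times with 50 counts or more. The 2 highest genes of each pathway list and Htr6 are given with counts in every library or with means only. A gene of these lists is not reported here. Differences within a library were tested by an exact sign-flip permutation. For genes that reached 10 counts in 2 libraries, spread was tested with a Poisson chi-square and edgeR's quasi-likelihood dispersion. Both were also run on simulated counts, with a fixed dispersion for the quasi-likelihood run. The power of the quasi-likelihood test on the real counts was not shown. No pair of libraries was a repeat: their chi-square per degree of freedom was 80.7 to 103.7. DESeq2 1.42.0 size factors and other alternatives are given at the end. Intervals from counts cover counting error only. Depth limits low members most.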

Additional observations from a re-analysis of the deposited data

How the results depend on the processing

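Of 125 alternative values for 16 results, 112 kept their direction and side of the threshold or stayed within the spread, 10 moved further and 3 reversed. The 112 include counts of members, which have no direction. The number varying beyond counting error was 43, and it was 39, 34 and 36 without replicates 1, 2 and 3. DESeq2 size factors and total gene counts in place of TMM changed no direction. Prkacb minus Prkaca was 0.23 without length scaling, and Pde4d minus Pde4b ran from -0.14 (without replicate 1) to 0.64 (without replicate 2). The phosphodiesterase minus cyclase median was -0.52 as a mean over members and 1.07 among members with at least 10 counts in 2 libraries. The PKA minus cyclase median was 3.74 with a pseudocount of 1, 3.70 without length scaling, 4.64 with the longest coding transcript as length (chosen after seeing the data) and 3.82 as a mean over members. The AKAP minus PKA median was -4.02 as a mean and -2.65 among members with at least 10 counts. The cAMP-specific minus cGMP-specific median was 2.74 with a pseudocount of 1, 3.19 as a mean and 0.61 among members with at least 10 counts. Where no choice of length, scale or members shows the cause of a shift, the cause was not tested. No paired analysis was possible because the labels give 1 group.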
